A study of Homo sapiens with 12 samples.

Results

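Chromatin accessibility was examined at 10 genes of the ETS transcription factor family other than EHF: ELF1, ELF2, ELF3, ETS1, ETS2, ETV4, ETV6, ERF, GABPA and SPDEF. Their regions were those of the ATAC-seq count table that overlapped a gene body in GENCODE 44 (hg38) or the 10 kb on either side of it. This gave 37 of the 30170 regions in the table, over 9 of the 10 genes. ETV4 had 0 regions, so no value is given for it. The counts of all regions of a gene were added up in each library, and these sums are called pooled counts. They were divided by the TMM-scaled library total to give CPM, the counts relative to that total.

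All cells were HCT116, an established and poorly differentiated human colorectal cancer line. EV cells carried an empty vector, EHF cells a plasmid expressing EHF, CDX1 cells a retrovirus expressing CDX1, and EHF+CDX1 cells both, with 3 libraries per group and 12 in all. EHF cells were clones resistant to geneticin, CDX1 cells were sorted for the GFP encoded by the retrovirus, and EHF+CDX1 cells were resistant clones of the CDX1 line after transfection with EHF. A difference between lines therefore cannot be told apart from a difference between selected clones. The labels do not say that the 3 libraries of a group came from separate cultures, so p-values measure the spread between these libraries, which may be technical.

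ETS factors share a DNA-binding domain, the ETS domain, that recognises a GGAA core, and the flanking bases and partner proteins distinguish the members. EHF belongs to the epithelium-specific subgroup together with ELF3 and, in wider groupings, SPDEF. ELF3 is expressed in epithelia including that of the intestine, and SPDEF is known for the maturation of secretory cells. Most other members are expressed widely, and they include activators that respond to MAP kinase signalling (ETS1, ETS2, ETV4) and repressors (ETV6, ERF).

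Of the 37 regions, 16 lay in an intron, 10 overlapped an exon and 11 lay in the flanks. Together 16 regions of 7 genes lay within 1 kb of a start site of the gene they were assigned to. ERF and SPDEF had none there. The 3 ERF regions all lay beyond its 3′ end and 23 to 2186 bp from the start of GSK3A, a kinase gene, so that the pooled ERF value describes that stretch and not the ERF start. The single SPDEF region lay in an intron. Both GABPA regions were shared with ATP5PF, which starts opposite to it and encodes a subunit of the mitochondrial ATP synthase. The median was 6 counts per member region and library. All 37 regions and 9 genes passed the filter of 3 CPM in at least 1 library, for which library totals were not TMM-scaled.

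The sequences below are those of the regions on which the results turn, as the plus strand of hg38, with each GGAA or its reverse complement TTCC in capitals. They comprise 2 regions beyond the 3′ end of ELF3, a region near the starts of ELF1 and WBP4, and intronic regions of ELF1, ETS1 and ETV6.
ELF3, the region nearer to its 3′ end, chr1:202017876-202018026: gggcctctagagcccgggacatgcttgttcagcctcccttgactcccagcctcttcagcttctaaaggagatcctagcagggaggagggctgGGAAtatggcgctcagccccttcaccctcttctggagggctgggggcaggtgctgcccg
ELF3, the region farther from its 3′ end, chr1:202018527-202018677: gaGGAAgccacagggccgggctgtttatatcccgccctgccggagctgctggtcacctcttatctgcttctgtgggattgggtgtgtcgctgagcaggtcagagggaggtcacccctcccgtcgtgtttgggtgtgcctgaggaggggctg
ELF1 and WBP4 start, chr13:41061703-41061899: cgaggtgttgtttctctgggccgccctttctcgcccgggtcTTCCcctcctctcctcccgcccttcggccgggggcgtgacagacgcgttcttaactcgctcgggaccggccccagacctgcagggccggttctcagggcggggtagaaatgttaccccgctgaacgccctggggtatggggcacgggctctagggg
ELF1 intron, chr13:41005862-41006012: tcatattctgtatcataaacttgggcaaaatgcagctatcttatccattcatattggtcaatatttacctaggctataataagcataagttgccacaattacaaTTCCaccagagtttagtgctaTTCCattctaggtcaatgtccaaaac
ETS1 intron, fewer counts in EHF+CDX1, chr11:128497161-128497374: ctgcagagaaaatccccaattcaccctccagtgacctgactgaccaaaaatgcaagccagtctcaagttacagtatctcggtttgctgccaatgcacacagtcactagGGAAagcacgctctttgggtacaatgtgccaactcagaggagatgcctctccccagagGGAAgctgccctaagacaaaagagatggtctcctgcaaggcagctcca
ETS1 intron, 1 count in EV, chr11:128565947-128566097: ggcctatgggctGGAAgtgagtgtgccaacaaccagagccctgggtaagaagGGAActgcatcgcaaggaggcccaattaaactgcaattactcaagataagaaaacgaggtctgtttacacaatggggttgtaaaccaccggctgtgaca
ETV6 intron, chr12:11729104-11729254: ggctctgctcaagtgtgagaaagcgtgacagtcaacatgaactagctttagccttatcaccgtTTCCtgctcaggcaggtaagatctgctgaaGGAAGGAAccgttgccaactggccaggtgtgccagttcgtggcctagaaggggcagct

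Each of these sequences held GGAA at least once. Across all regions whose start and end were 150 bp apart, 81.3% of 17356 held GGAA on either strand, against 20 of 22 such member regions (90.9%). The longer core GGAAG, which contains GGAA, was in 47.2% of all and in 11 of 22 member regions (50%). A CDX core written as TTTATG or TTTATT on either strand was in 17.9% of all and in 4 of 22 member regions (18.2%). Of the printed sequences only the ELF1 intron held either of these forms, a single TTTATG, and other forms of a CDX core were not searched. These letter matches are a description of the windows.

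Library totals ran from 567366 to 2443334 counts. In EV libraries 65.0% to 73.8% of them fell in regions that match mitochondrial DNA, compared with 14.5% to 37.2% elsewhere. Regions over exons of the introduced genes took 0.00494% to 0.0329% in EV and 9.99% to 78.4% in the others. None of the member regions was among either kind. Both percentages are shares of the whole library total, so counts over introduced exons lower the mitochondrial share outside EV. The mitochondrial share of the remaining counts was not compared. Replicate 2 of EHF+CDX1 stood apart, in that its regions held 22 counts at the median, where the 11 other libraries had 2 to 11. Its share over exons of the introduced genes was 9.99%, against 61.1% and 60.0% in replicates 1 and 3 of the group. Its TMM factor was 2.62, against 0.788 and 0.780 in those replicates. Replicate 2 also had the lowest share over introduced exons within EHF (34.7%) and within CDX1 (35.8%). Its TMM factors there, 1.57 and 1.41, were the highest of those groups. In every group the median count per region was highest in replicate 2. A count of 3 corresponded to between 0.677 CPM in EHF+CDX1 replicate 2 and 4.51 CPM in EV replicate 3. Of the 5 epithelial markers, 4 had regions at their starts, CDH1 being the exception. Regions at the starts of blood and endothelial markers (PTPRC, SPI1, CD3E, PECAM1 and CDH5) and of PDGFRB numbered 0, while COL1A1 and COL1A2 had 3 regions.

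In EV cells the level per kilobase of covered region was highest at GABPA, with 65.5 ± 8.6 CPM per kb (SD, n = 3). ETS1 had 45.5 ± 5.5, ERF 41.7 ± 11.4, ELF2 33.7 ± 13.1 and ELF1 28.4 ± 1.9 CPM per kb. ETS2 had 22.5 ± 12.9, ELF3 21.4 ± 12.9, ETV6 10.4 ± 4.2 and SPDEF 6.41 ± 7.48 CPM per kb. The 3 GABPA values lay above all ETS1 values. Below GABPA each gene overlapped the next in this order in the range of its 3 libraries, so that neighbours cannot be ranked beyond their spread.

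**Figure D1:**
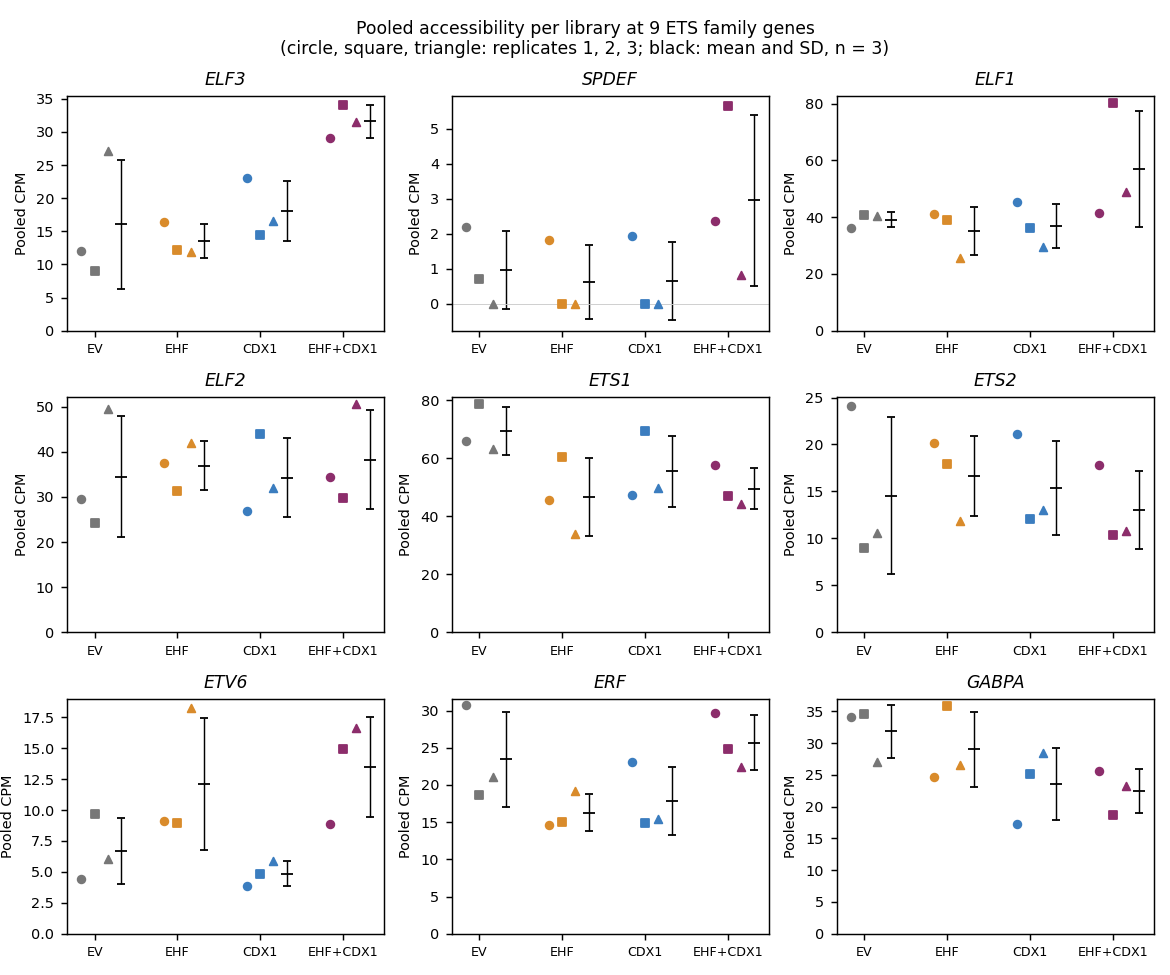
Pooled CPM (vertical axis) at 9 ETS family genes in the 3 libraries of each group (horizontal axis), with circles, squares and triangles for replicates 1, 2 and 3 and black bars for mean and SD. The 3 EHF+CDX1 libraries lie above all 9 others at ELF3 (29.1 to 34.1 against at most 27.1 CPM).

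In the main fit ELF3 was the only member whose pooled counts gave a call, and this was against EHF cells alone. The gene spans chr1:202007945-202017183 on the plus strand, and of its 5 regions 3 overlapped exons near an annotated start and 2 lay beyond its 3′ end. Of the exonic regions 2 also lay in ELF3-AS1, an antisense gene from which ELF3 cannot be told apart there. Pooled CPM at ELF3 was 12.1, 8.98 and 27.1 in EV, 16.5, 12.2 and 11.9 in EHF, 23.1, 14.5 and 16.6 in CDX1, and 29.1, 34.1 and 31.6 in EHF+CDX1. Thus the 3 EHF+CDX1 libraries lay above all 9 others, with EV replicate 3 the nearest of them. Such a separation was seen at 3.83% of the 13171 protein-coding genes with a region, and at 1 of 9 members. None of the 9 members had all 3 EHF+CDX1 libraries below the 9 others, against 1.61% of all genes.

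ELF3 rose in EHF+CDX1 against EHF cells, by 1.25 ± 0.32 on the log2 scale (SE, 2.37-fold, edgeR quasi-likelihood test, adjusted p = 0.0256). Against EV the log2 fold change was 1.10 ± 0.34 (95% interval 0.44 to 1.77, adjusted p = 0.0673), and against CDX1 cells 0.84 ± 0.32 (0.22 to 1.47, adjusted p = 0.165), neither of which passed the threshold of 0.05. The single lines gave log2 fold changes of -0.14 ± 0.38 (EHF) and 0.26 ± 0.37 (CDX1) against EV, with adjusted p of 0.999 for both. The call against EHF was lost without EHF+CDX1 replicate 2 (log2 fold change 1.19, adjusted p = 0.205), without EHF replicate 2 (1.16, 0.109) and without EHF replicate 3 (1.18, 0.0994). It was also lost with the gene body alone as the window (0.93, adjusted p = 0.186). With RLE size factors, or with the replicate number as a block, the value against EV passed the threshold. It also passed in 2 of the fits that left out 1 library. The value against CDX1 cells passed with the block.

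The 2 regions beyond the 3′ end of ELF3, printed above, had the highest fold changes of the gene against EHF, and the other 3 gave 0.52 to 1.41 on the log2 scale. At the farther one CPM was 0, 2.07 and 6.01 in EV, 2.74, 3.25 and 2.74 in EHF, 6.73, 3.86 and 2.37 in CDX1, and 8.90, 9.48 and 6.64 in EHF+CDX1. All EHF+CDX1 libraries exceeded all EV and EHF libraries there, and they overlapped the CDX1 libraries. Its log2 fold change was 1.82 ± 0.64 against EV (adjusted p = 0.0984) and 1.495 ± 0.56 against EHF (adjusted p = 0.104). Leaving out 1 library at a time gave 1.28 (without EV replicate 1) to 2.69 (without EV replicate 3) against EV. At the nearer region CPM was 1.10, 2.07 and 7.52 in EV, 1.83, 0 and 3.66 in EHF, 3.85, 2.41 and 0 in CDX1, and 4.16, 8.13 and 6.64 in EHF+CDX1. Here EV replicate 3 lay within the range of EHF+CDX1. Its log2 fold change was 1.03 ± 0.70 against EV (adjusted p = 0.426) and 2.12 ± 0.74 against EHF (adjusted p = 0.0784). This region had the smallest p of the interaction among member regions (2.59 ± 1.15 on the log2 scale, unadjusted p = 0.0252, adjusted p = 0.423). The region with the most counts at an ELF3 start gave 0.66 ± 0.63 against EV (adjusted p = 0.594) and 1.41 ± 0.63 against EHF (adjusted p = 0.191).

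Marker sums are given beside ELF3 as ranges, without a test. The summed CPM at the starts of 5 colonic differentiation markers, of which VIL1, GPA33, CDH17 and CDX2 had a region, ranged from 6.01 to 8.78 in EV libraries, from 6.10 to 10.97 in EHF libraries, from 4.82 to 19.2 in CDX1 libraries and from 14.95 to 32.3 in EHF+CDX1 libraries. The epithelial markers summed to 26.9 to 41.7 CPM in EV libraries, 34.1 to 49.4 CPM in EHF libraries, 37.6 to 41.4 CPM in CDX1 libraries and 42.7 to 63.7 CPM in EHF+CDX1 libraries. The regions at COL1A1 and COL1A2 summed to 12.03 to 13.2 CPM in EV libraries, 11.8 to 18.3 CPM with EHF, 9.16 to 19.2 CPM with CDX1 and 9.14 to 12.2 CPM with both. In each of these 3 lists EHF+CDX1 libraries overlapped those of at least 1 other group, and the part of these levels in the ELF3 result was not tested. In bulk cells, more cells with an open region and a more open region per cell cannot be told apart.

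Over the 12 libraries the genes whose pooled log2 CPM was most like that of ELF3, among 5856 with a mean of at least 20 counts and over 1 Mb away, were TIPARP (Pearson r = 0.93), EPB41L4B (0.90) and FZD5 (0.89). These are descriptions, since the points share libraries and their depth.

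SPDEF had few counts. Its single intronic region, at chr6:34546694-34546844, held 2, 1 and 0 counts in EV, 2, 0 and 0 in EHF, 2, 0 and 0 in CDX1, and 4, 25 and 1 in EHF+CDX1. Replicate 2 held 83.3% of the EHF+CDX1 counts, and its scaled library total was also the largest. On the TMM-scaled total the region exceeded 3 CPM only in that library, at 5.64 CPM. On the unscaled totals used for the filter it also reached 3 CPM in EV replicate 1. In the replicated fit the difference did not pass the threshold (adjusted p = 0.425 against EV, 0.221 against EHF and 0.258 against CDX1). Without EHF+CDX1 replicate 2, 4 and 1 counts remain against 3 in the EV group.

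ELF1, a widely expressed activator, lies on the minus strand at chr13:40931924-41061440 and had 8 regions. Pooled CPM was 36.2, 40.8 and 40.6 in EV, 41.2, 39.0 and 25.6 in EHF, 45.2, 36.2 and 29.6 in CDX1, and 41.6, 80.1 and 49.0 in EHF+CDX1. EHF+CDX1 replicate 2 was far above all others, while replicate 1 was below the highest CDX1 library. The pooled log2 fold change was 0.57 ± 0.27 against EV (adjusted p = 0.259), 0.71 ± 0.26 against EHF (adjusted p = 0.155) and 0.65 ± 0.26 against CDX1 (adjusted p = 0.195). Leaving out EHF+CDX1 replicate 2 took the value against EV to 0.21.

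ELF1 regions nevertheless made up both calls against EHF cells. The region upstream of ELF1 lay inside WBP4, which encodes a spliceosomal protein. It was 263 bp from an ELF1 start and 194 bp from a WBP4 start, so the 2 genes cannot be told apart there. This region had 12.5, 28.9 and 11.6 CPM in EHF+CDX1 against 10.1, 8.94 and 4.57 CPM in EHF. In EV it had 6.59, 12.4 and 15.0 CPM and in CDX1 14.4, 12.5 and 8.28 CPM. It rose by 1.21 ± 0.39 on the log2 scale against EHF (adjusted p = 0.0494), and EV and CDX1 libraries reached into the EHF+CDX1 range. The intronic region held 1, 0 and 1 counts in EV, 1, 1 and 1 in EHF, 6, 1 and 2 in CDX1, and 4, 56 and 3 in EHF+CDX1. Its rate in EHF+CDX1 was 13.3 times that in EHF, with a 95% counting interval of 4.36 to 66.4 (adjusted p = 0.0169 in the fit). Replicate 2 held 88.9% of its EHF+CDX1 counts. Without that library the log2 fold change was 0.60 at the start region (adjusted p = 0.689). At the intronic region the fitted log2 value, which depends on the prior count, went from 3.17 to 1.74 without it (adjusted p = 0.631). Without EHF replicate 2 the adjusted p was 0.118 and 0.126. At the start region leaving out EHF replicate 1 or 3, EV replicate 3 or CDX1 replicate 1 or 3 also ended the call. Neither region was called by DESeq2 (adjusted p = 0.15 for both).

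ELF2, the relative of ELF1 on chr4, had 4 regions. Pooled CPM was 29.6, 24.2 and 49.6 in EV, 37.5, 31.3 and 42.1 in EHF, 26.9, 43.9 and 31.9 in CDX1, and 34.4, 29.8 and 50.7 in EHF+CDX1, with all groups overlapping. The log2 fold change of EHF+CDX1 against EV was 0.17 ± 0.29 (95% interval -0.39 to 0.74, adjusted p = 0.793). Its sign turned without EV replicate 2, without EHF+CDX1 replicate 3 and with start regions alone.

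**Figure D2:**
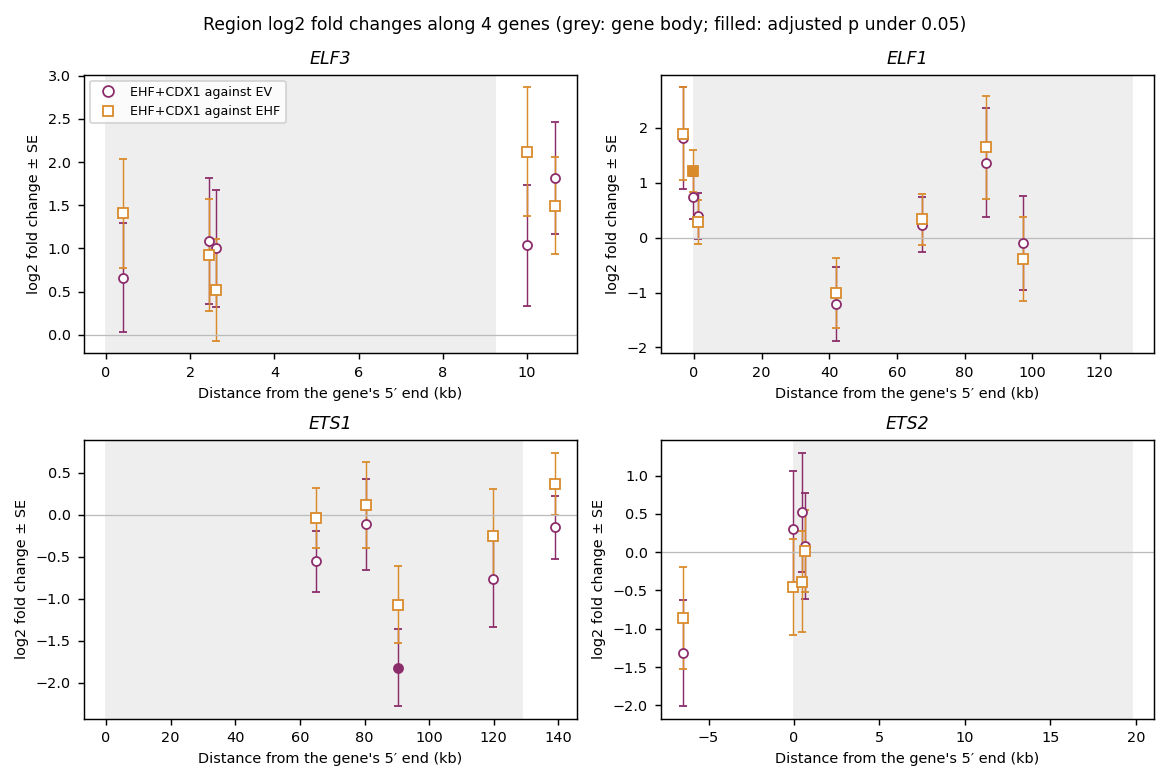
log2 fold change ± SE (vertical axis) of the regions of ELF3, ELF1, ETS1 and ETS2 by the distance of the region's centre from the 5′ end of the gene in kb (horizontal axis), for EHF+CDX1 against EV (circles) and against EHF (squares), with the gene body in grey and filled symbols for adjusted p under 0.05. Regions with 3 or fewer counts in the control group are left out. All ELF3 values are above 0, and the only filled circle is the ETS1 intron at -1.82.

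ETS1, a factor that responds to MAP kinase signalling, lies on the minus strand at chr11:128458761-128587558 and held the only member region called against EV. The intronic region, 8020 bp from the nearest ETS1 start, had 14.3, 17.96 and 13.5 CPM in EV, 10.1, 10.6 and 6.40 in EHF, 8.66, 14.5 and 3.55 in CDX1, and 5.34, 3.84 and 4.15 in EHF+CDX1. The EHF+CDX1 libraries lay below all EV and all EHF libraries, and CDX1 replicate 3 lay below them. It fell by 1.82 on the log2 scale against EV (SE 0.45, adjusted p = 0.0131). The call was lost without EHF+CDX1 replicate 2 (log2 -1.66, adjusted p = 0.174) and without EV replicate 2 (-1.66, 0.133). DESeq2 gave an adjusted p of 0.0801 and limma voom 0.0551.

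Over all 6 ETS1 regions, pooled CPM was 65.9, 78.7 and 63.1 in EV, 45.7, 60.5 and 33.8 in EHF, 47.1, 69.5 and 49.7 in CDX1, and 57.6, 46.95 and 44.02 in EHF+CDX1. Each EHF and each EHF+CDX1 library was below every EV library. The log2 fold change against EV was -0.55 ± 0.25 in EHF (adjusted p = 0.982), -0.31 ± 0.25 in CDX1 (adjusted p = 0.999) and -0.49 ± 0.25 in EHF+CDX1 (adjusted p = 0.296), so none passed the threshold. The region at the ETS1 start, which also holds MIR6090, gave -0.55 ± 0.36 against EV (adjusted p = 0.401). A further intronic region went the other way in counts, with 1, 0 and 0 in EV and 10, 21 and 1 in EHF+CDX1. It reached the filter of 3 CPM only in EHF+CDX1 libraries, and the difference from EV did not pass the threshold (adjusted p = 0.164).

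ETS2, on chr21, had 24.1, 8.98 and 10.5 pooled CPM in EV, 20.1, 17.9 and 11.9 in EHF, 21.2, 12.1 and 13.0 in CDX1, and 17.8, 10.4 and 10.8 in EHF+CDX1. The groups overlapped, and replicate 1 was the highest in each of them. The log2 fold change of EHF+CDX1 against EV was -0.16 ± 0.39 (95% interval -0.93 to 0.61, adjusted p = 0.869), and its sign turned without EV replicate 1, without EHF+CDX1 replicate 2 and with the gene body or start regions alone.

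ETV6, a transcriptional repressor known from fusion genes in leukaemia, lies on chr12 and had 4 regions. Pooled CPM was 4.39, 9.67 and 6.01 in EV, 9.15, 8.94 and 18.3 in EHF, 3.85, 4.82 and 5.91 in CDX1, and 8.90, 14.9 and 16.6 in EHF+CDX1. The EHF+CDX1 libraries lay above all CDX1 libraries and overlapped those of EV and EHF. Against CDX1 the log2 fold change was 1.47 ± 0.45 (adjusted p = 0.0842), against EV 0.92 ± 0.44 (adjusted p = 0.264) and against EHF 0.20 ± 0.39 (adjusted p = 0.868). EHF against EV gave 0.73 ± 0.46 and CDX1 against EV -0.55 ± 0.53. The region with the smallest p in EHF against EV was the printed ETV6 intron, with 0 counts in all EV and all CDX1 libraries. It held 2, 3 and 4 counts in EHF, and 0, 14 and 5 in EHF+CDX1. It reached the filter of 3 CPM only in EHF+CDX1 libraries, and so entered every test through that group. On the TMM-scaled total EHF replicate 3 also exceeded 3 CPM, at 3.66 CPM. It did not pass the threshold (adjusted p = 0.964 for EHF against EV, 0.15 for EHF+CDX1 against EV and 0.119 against CDX1).

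**Figure D3:**
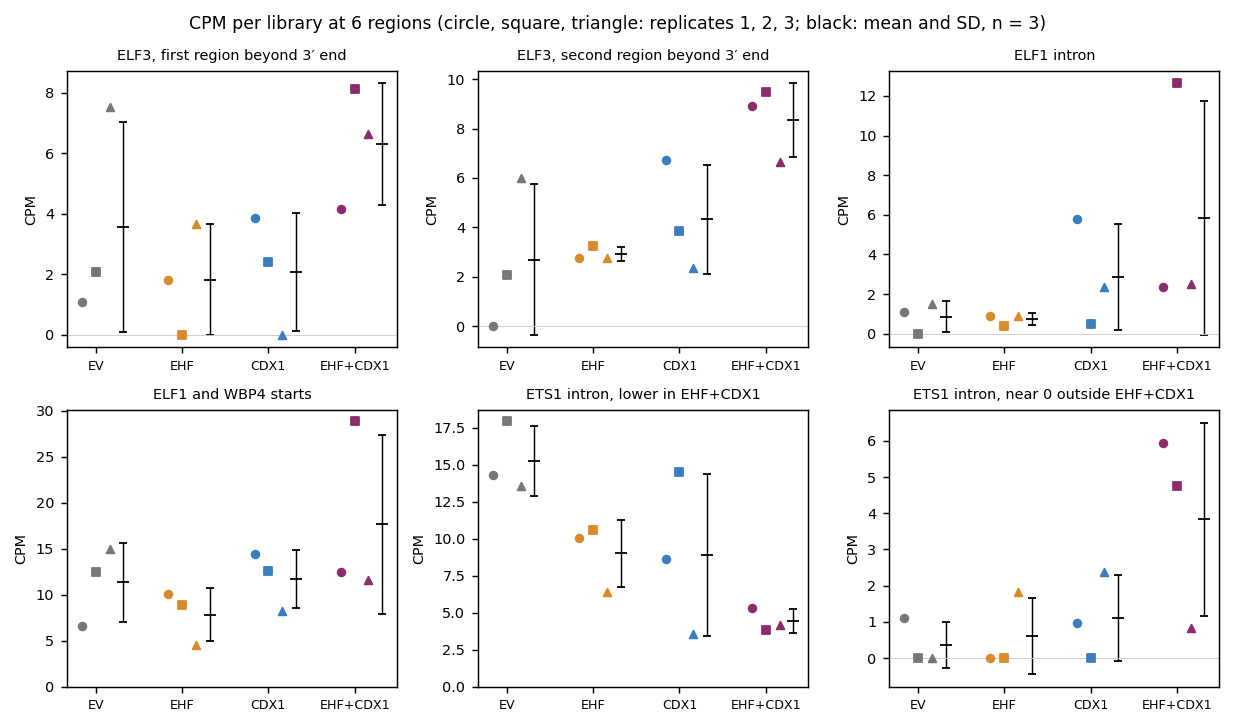
CPM (vertical axis) in the 3 libraries of each group (horizontal axis) at 6 of the printed regions, with circles, squares and triangles for replicates 1, 2 and 3 and black bars for mean and SD. At the ETS1 intron that fell, EHF+CDX1 libraries lie between 3.84 and 5.34 CPM and EV libraries between 13.5 and 17.96 CPM, while at the ELF1 intron replicate 2 of EHF+CDX1 stands alone at 12.6 CPM.

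The window of ERF, a repressor regulated by MAP kinase signalling, had 30.7, 18.7 and 21.0 pooled CPM in EV, 14.6, 15.0 and 19.2 in EHF, 23.1, 15.0 and 15.4 in CDX1, and 29.7, 24.8 and 22.4 in EHF+CDX1. The EHF+CDX1 libraries lay above all EHF libraries and overlapped EV and CDX1. The log2 fold change was 0.67 ± 0.30 against EHF (adjusted p = 0.275) and 0.14 ± 0.31 against EV (adjusted p = 0.843). The sign against EV turned without EV replicate 2 and without replicate 2 of every group. Its interaction of 1.07 ± 0.45 had the smallest unadjusted p of the member genes for that contrast (0.0208, adjusted p = 0.507). As stated above, these counts lie at GSK3A.

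GABPA encodes the DNA-binding subunit of GABP, a factor known for driving genes of mitochondrial respiration. Pooled CPM in its window was 34.0, 34.5 and 27.1 in EV, 24.7, 35.8 and 26.5 in EHF, 17.3, 25.1 and 28.4 in CDX1, and 25.5, 18.7 and 23.3 in EHF+CDX1. The EHF+CDX1 libraries were all below the EV libraries. The log2 fold change was -0.54 ± 0.29 against EV (95% interval -1.10 to 0.02, adjusted p = 0.319), and -0.45 ± 0.30 for CDX1 against EV (adjusted p = 0.999).

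In the comparison of EHF+CDX1 with EV, 2 of the 9 member genes (ELF1 and ELF3) had all EHF+CDX1 libraries above all EV libraries, as did 14.7% of all genes, and 2 (ETS1 and GABPA) had them all below, as did 6.15% of all genes. By the edgeR test 0 of 9 member genes were called, against 2.22% of all genes, and 3 had an unadjusted p under 0.05, against 17.2%. DESeq2 and limma voom also called 0. Among regions 1 of 37 was called, against 2.57% of all regions, and 5 had an unadjusted p under 0.05, against 19.0%. The median log2 fold change was 0.17 over the member genes and 0.15 over all genes, and 0.40 over the member regions and 0.18 over all regions.

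Against EHF cells, 1 of 9 member genes was called, against 2.06% of all genes, and 4 had an unadjusted p under 0.05, against 15.3%. Of the regions 2 of 37 were called, against 4.35% of all, and 10 had an unadjusted p under 0.05, against 19.6%. The medians were 0.20 over the member genes and 0.00 over all genes. Against CDX1 cells, 0 of 9 genes were called by edgeR, DESeq2 or limma voom, against 1.54% of all genes with edgeR, and 4 had an unadjusted p under 0.05, against 15.9%. Of the regions 0 of 37 were called by the same tools, against 2.60% with edgeR, and 5 had an unadjusted p under 0.05, against 17.5%. The medians were 0.55 over the member genes and 0.10 over all genes. These 3 comparisons share the EHF+CDX1 libraries.

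The single lines showed no member that passed the threshold. In EHF against EV, 0 of 9 genes were called by edgeR, DESeq2 or limma voom (0.00759% of all genes with edgeR), and 1, ETS1, had an unadjusted p under 0.05 (4.48% of all genes). Of the regions 0 of 37 were called by these tools (0.00995% of all regions) and 1 had an unadjusted p under 0.05 (4.96%). In CDX1 against EV, 0 of 9 genes were called by any of these tools (0.0152% of all genes), and 0 had an unadjusted p under 0.05 (2.83%). Of the regions 0 of 37 were called (0% of all regions) and 0 had an unadjusted p under 0.05 (3.81%). The smallest p for CDX1 against EV among members was at the ELF1 intron (unadjusted p = 0.126). The medians over member genes were -0.14 for EHF and -0.31 for CDX1, against 0.11 and 0.03 over all genes.

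The interaction is the log2 change with both factors minus those of EHF alone and CDX1 alone, each against EV. Here 0 of 9 member genes were called by edgeR, DESeq2 or limma voom (0% of all genes with edgeR), and 2, ELF1 and ERF, had an unadjusted p under 0.05 (7.98% of all genes). For ELF1 the value was 0.79 ± 0.38 and for ELF3 0.98 ± 0.50, with adjusted p of 0.619 and 0.625. The medians were 0.75 over the member genes and -0.03 over all genes. Of the regions 0 of 37 were called by these tools (0.123% with edgeR) and 2 had an unadjusted p under 0.05 (9.88%).

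**Figure D4:**
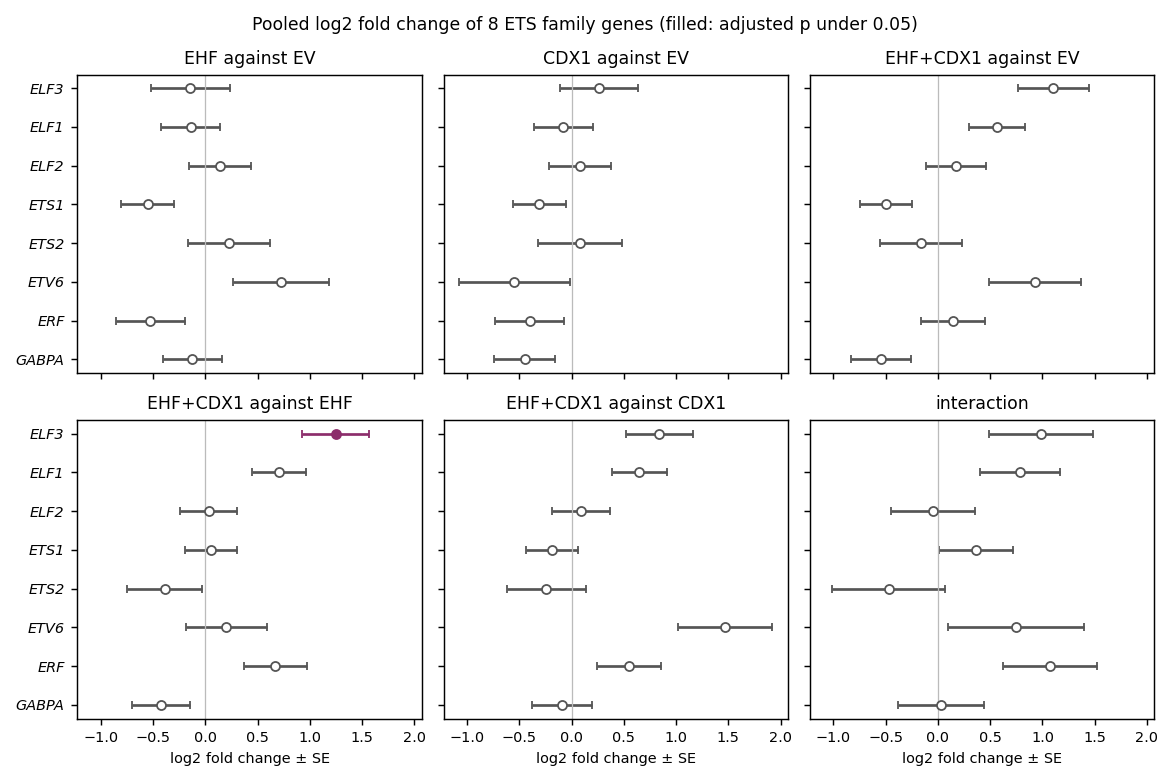
Pooled log2 fold change ± SE (horizontal axis) of 8 member genes (vertical axis) in the 6 comparisons, one panel each, with filled symbols for adjusted p under 0.05. SPDEF is left out because its control groups held 3 or fewer counts. The only filled symbol is ELF3 in EHF+CDX1 against EHF, at 1.25.

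Of the 17 other ETS genes of a list used for comparison, 10 had a region, 19 regions in all. ETV1, a relative of ETV4, was the only one called. It had 23.0, 15.9 and 27.1 pooled CPM in EV, 22.9, 34.1 and 30.2 in EHF, 22.1, 24.1 and 10.6 in CDX1, and 39.8, 63.2 and 41.5 in EHF+CDX1, the latter above all 9 others. It rose in EHF+CDX1 by 1.21 ± 0.30 on the log2 scale against EV (adjusted p = 0.0222) and by 1.31 ± 0.29 against CDX1 (adjusted p = 0.00964). Without EHF+CDX1 replicate 2 these were 0.94 (adjusted p = 0.199) and 1.03 (adjusted p = 0.222). The call against EV was also lost without EV replicate 2 (0.98, adjusted p = 0.184), and that against CDX1 without CDX1 replicate 3 (1.08, adjusted p = 0.0914). Of the 19 regions 0 were called by edgeR in any of the 6 comparisons.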

How the data were processed

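ATAC-seq was performed by the authors on HCT116 cells with Nextera transposition, and paired-end reads were aligned to hg38 with Subread 2.0.0, keeping uniquely mapped reads. Peaks were called with HOMER 4.7, merged, and counted with featureCounts 2.0.0. Removal of duplicates and shifting of reads are not given in the sources used here. The deposited count table holds whole-number counts per region with no normalisation. The deposited log2 values hold log2 CPM per library and were used only in an alternative fit.

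The sample titles gave the groups and the replicate numbers. The member genes, lists and printed regions were chosen with earlier results of these data known. The test was the quasi-likelihood test of edgeR 4.0.16 in R 4.3.3 (TMM, robust, two-sided), with 1 coefficient per group over all 12 libraries. Features needed a CPM of 3 in at least 1 library, on library totals without TMM scaling, which left 30154 regions. P-values were adjusted by Benjamini-Hochberg over all regions or over all 13171 protein-coding genes with a region, and the threshold was 0.05. Gene fits used the library totals and TMM factors of the region table. Windows of neighbouring genes can share regions, and 11 of the 37 member regions lay in the window of another protein-coding gene. The biological coefficient of variation was 0.335 for regions and 0.241 for genes. Standard errors were derived from the fold change and the F statistic. The fits were tested on simulated data.

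Regions named are the region with the most counts within 1 kb of a start of each member, those called, the 5 with the smallest p for EHF+CDX1 against EV and the 1 with the smallest p in every other comparison. The CDX core search and the test of EHF against CDX1 cells were added after values had been seen. Mitochondrial matches (193 regions) were found with blastn 2.17.0 over at least 40 bp at 80% identity. Coordinates are as deposited and were read as 1-based with both ends included, so a printed sequence may begin 1 base early. Intervals and floors (3 counts) cover counting error only, since reads were not tagged by molecule and PCR copies are not independent. Alternatives were other scalings and tools (DESeq2 1.42.0, limma 3.58.1), filters, windows, the replicate number as a block, and leaving out libraries.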

Additional observations from a re-analysis of the deposited data

Results flagged for a closer look

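ETV6 was set apart because the single lines lay on opposite sides of the EV mean. Its pooled CPM exceeded the EV mean of 6.69 in 3 of 3 EHF libraries and in 0 of 3 CDX1 libraries. The ranges overlapped, since 2 EHF libraries (9.15 and 8.94 CPM) lay below EV replicate 2 (9.67 CPM) and 2 CDX1 libraries (4.82 and 5.91 CPM) lay within the EV range. With start regions alone CDX1 against EV turned to 0.21 on the log2 scale. The difference between the lines was tested directly, and EHF exceeded CDX1 by 1.27 ± 0.47 on the log2 scale (edgeR, unadjusted p = 0.00946, adjusted p = 1). It was chosen after its values had been seen and failed the correction over all genes.  Groups of 3 libraries were too small for the test of single outlying libraries.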

How the results depend on the processing

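Of 498 recomputed gene-level log2 fold changes, 472 kept their direction and their side of the threshold, and of 282 recomputed counts of members called, 240 were within 1.5 times the reported count. Of 92 recomputed log2 fold changes of 4 regions, 65 stayed the same in this sense and 27 no longer passed the threshold. In both single lines and in the interaction all counts stayed at 0. The 42 counts that moved therefore all belonged to EHF+CDX1 against EV, EHF or CDX1. Against EV the reported 1 member region became 0 with library size alone, limma voom, DESeq2, limma-trend on the deposited log2 CPM and without replicate 2 of every group, and 2 with RLE size factors and with the replicate block, and leaving out 1 library gave 0 to 2. Against EHF the reported 2 regions became 0 with limma voom, DESeq2, limma-trend and without replicate 2 of every group, and 1 with library size alone, without the robust option and with a CPM of 3 in 2 libraries, and leaving out 1 library gave 0 to 2. The member genes called against EV went from 0 to 1 with RLE size factors and with the block (0 to 1 on leaving out 1 library). Against EHF they went from 1 to 0 with library size alone, without replicate 2 of every group, with the gene body and with start regions, and to 2 with the block (0 to 1 on leaving out 1 library). Against CDX1 they went from 0 to 1 with RLE and the gene body, and to 2 with the block (0 on leaving out any 1 library). The number of calls over all regions moved too. For EHF+CDX1 against EV it was 776 in the main fit, 44 with library size alone, 97 with DESeq2 and 715 with limma voom. It was 790 with RLE and 1711 with the block. The cause of these changes was not tested.

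ELF3 against EV passed the threshold with RLE (1.18) and with the replicate block (1.16), and leaving out 1 library gave 0.75 to 1.58. ELF3 against EHF missed it with library size alone (1.85), without replicate 2 of every group (1.12), with the gene body (0.93) and with start regions (0.93), and leaving out 1 library gave 1.16 to 1.39. ETV6 against CDX1 passed with RLE (1.58), the block (1.48) and the gene body (2.38). With the replicate block ELF1 against EHF (0.71) and ELF3 against CDX1 (0.86) also passed. Same-numbered libraries of different groups correlated by -0.01 to 0.31 in their deviations (median 0.09), with 5 of 18 pairs over 0.1. Libraries of different numbers correlated by -0.17 to 0.06 (median -0.06), with 0 of 36 pairs over 0.1. All 12 of 12 libraries correlated best with one of their own number. The main fit left the replicate number out, so spread shared by libraries of the same number stayed in it. Against EV it called 776 of all regions in EHF+CDX1, and the fit with the block called 1711.

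ELF2 against EV turned to -0.014 with start regions and spanned -0.062 to 0.45 on leaving out 1 library. ERF against EV turned to -0.0064 without replicate 2 of every group and spanned -0.032 to 0.39. ETS2 against EV turned to 0.29 with the gene body and 0.30 with start regions, and spanned -0.49 to 0.42. ETV6 in CDX1 against EV turned to 0.21 with start regions. Library size alone moved the median of all genes from 0.11 to -0.46 in EHF against EV, from 0.03 to -0.64 in CDX1 against EV, from 0.00 to 0.57 against EHF, from 0.10 to 0.77 against CDX1 and from -0.03 to 1.20 in the interaction. RLE moved the last 3 to 0.13, 0.20 and 0.12. Gene values are to be read relative to these medians. A count of 3 was 2.07 to 4.51 CPM in EV libraries, so that changes of regions near that level could not be detected there.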

Other observations

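Among the 5861 genes compared, the 3 whose pooled pattern over the 12 libraries was most like that of SPDEF were DHRS12 and ENSG00000285444, which share their regions (Pearson r = 0.89 for both), and EPHA6 (0.88). SPDEF had a mean of only 3.08 counts per library, and EHF+CDX1 replicate 2 held 25 of its 37 counts.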
